A study of Mus musculus with 5 samples.

Results

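Skeletal muscle lineage cells made up 370 of the 82516 cells that passed the filters in single-cell RNA-seq of digested femoral and tibial growth plate cartilage from 5 mouse pups. A cell was counted as one when its UMIs (unique molecular identifiers, each standing for 1 captured transcript) of Pax7, Myf5, Myod1, Myog and Chrna1 summed to at least 2, its Col2a1 level was below 200 UMIs per 10000, and it held no UMI of Ptprc, the pan-leukocyte gene. Cells had 200 to 6000 detected genes and at most 10% mitochondrial UMIs. The pups were profiled with the BD Rhapsody system and comprised 2 WT pups (pups 1 and 2) and 3 mutant pups (pups 3, 4 and 5), all labelled C57BL/6J and described as littermates. The Cre line had been made on a mixed background and backcrossed to C57BL/6J, so the strain is given here as a label. The mutant pups carried Col2a1-Cre with 1 conditional Trpv4 allele for p.R594H, a change that activates this calcium channel. The Cre is chondrocyte-selective, so the mutation was not aimed at muscle. Whether the WT pups carried the Cre is not given in the sources used here. The sample labels give postnatal day 5 as the age, while the series' design text gives day 3. All cells were labelled chondrocytes, which the marker values below do not bear out for these cells. Before the cartilage was dissociated, the knees had been dissected and predigested with collagenase to take off adhering muscle. Pups 3 and 4 expressed Xist and pups 1, 2 and 5 expressed Ddx3y, so both WT pups were male by these genes.

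Skeletal muscle grows after birth from mononucleated precursors called satellite cells, which sit against the fiber and carry the transcription factor Pax7 and usually Myf5. Once activated they make Myod1, divide, then switch on Myog, leave the cell cycle, and fuse into fibers through the membrane proteins Mymk (Myomaker) and Mymx (Myomerger). Notch signaling holds the precursors undifferentiated, while Chrna1, the alpha subunit of the muscle acetylcholine receptor, appears with differentiation. Myod1 and Myog act through the E-box, the short DNA word CANNTG, which reads the same on both strands.

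The bases just upstream of 4 muscle genes are shown because the cells were defined by, or separated along, these genes: Myog and Chrna1 belong to the defining set, Actc1 (cardiac alpha-actin, also the actin of developing skeletal muscle) had the largest fold change between the states described below among genes that passed the filter on low counts, and Klhl41 (a thin-filament stabilizer) was found in Myog cells and in no Pax7 cell. Each is the 250 bases before the RefSeq transcript start on GRCm38.p6, printed 5′ to 3′ in the direction of transcription, at chr1:134289754-134290003 (plus strand) for Myog, chr2:73580339-73580588 (minus strand) for Chrna1, chr2:69669870-69670119 (plus strand) for Klhl41 and chr2:114052876-114053125 (minus strand) for Actc1. Capitals mark matches to CANNTG, to the MEF2 site and to the CArG box, the element bound by serum response factor.
Myog: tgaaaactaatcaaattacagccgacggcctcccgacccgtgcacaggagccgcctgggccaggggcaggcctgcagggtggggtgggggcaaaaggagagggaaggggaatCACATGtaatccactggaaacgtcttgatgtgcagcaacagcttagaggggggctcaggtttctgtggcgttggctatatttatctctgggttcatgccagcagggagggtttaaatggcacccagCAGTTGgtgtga
Chrna1: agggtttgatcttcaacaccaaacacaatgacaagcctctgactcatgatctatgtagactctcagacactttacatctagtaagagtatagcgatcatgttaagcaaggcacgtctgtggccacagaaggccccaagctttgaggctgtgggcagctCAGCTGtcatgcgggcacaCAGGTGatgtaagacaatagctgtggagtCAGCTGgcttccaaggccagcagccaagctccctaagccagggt
Klhl41: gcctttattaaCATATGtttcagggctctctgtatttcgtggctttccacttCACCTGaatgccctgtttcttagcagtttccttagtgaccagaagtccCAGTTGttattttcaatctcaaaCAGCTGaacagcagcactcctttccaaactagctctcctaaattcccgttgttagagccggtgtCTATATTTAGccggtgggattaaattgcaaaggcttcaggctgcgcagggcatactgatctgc
Actc1: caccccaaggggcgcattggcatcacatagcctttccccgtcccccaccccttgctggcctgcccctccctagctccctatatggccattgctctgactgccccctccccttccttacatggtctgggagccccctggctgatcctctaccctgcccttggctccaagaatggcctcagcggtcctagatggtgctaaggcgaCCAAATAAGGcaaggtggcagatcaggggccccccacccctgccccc
Myog held 2 E-boxes, CACATG beginning 138 bases and CAGTTG beginning 12 bases before the start. Chrna1 held 3, of which 2 read CAGCTG (92 and 44 bases before the start) and 1 read CAGGTG (73 bases before it). Klhl41 held 4 E-boxes, 1 of them CAGCTG, and a match to the MEF2 consensus, CTATATTTAG at 63 bases. The MEF2 pattern searched had to end in A or G. The stretch ctatatttat in Myog differs from it only in the last base and so is not marked. Actc1 held no E-box and 1 CArG box, CCAAATAAGG at 47 bases. Such words are common: CANNTG was found in 66.2% and CAGCTG in 13% of the 32851 promoters of this length in the RefSeq table, the MEF2 site in 2.92% and the CArG box in 1.47%. These 4 genes were chosen with their values known, and a match describes letters, not a bound site.

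Among the defining genes, Pax7 was found in 276 of the 370 cells (74.6%) and Myf5 in 230 (62.2%), against 0.487% and 0.162% of macrophages, which should lack both and whose median depth was higher (8988 against 5427 UMIs). Myod1 was found in 134 cells (36.2%), Chrna1 in 100 (27.0%) and Myog in 67 (18.1%), while no macrophage held a UMI of these 3 genes. Pax7 reached at most 8 UMIs in a cell, whereas Myog reached 82 with a median of 12 in the cells that had it. The most frequent combination was Pax7 with Myf5 alone (145 cells), followed by Pax7 alone (40) and by Myod1, Myog and Chrna1 together (32). These values chose the cells and are given as a description. The sum of the 5 genes had a median of 5 and ran to 85. At the threshold, 48 cells had a sum of 2 and 116 further cells, left out, had a sum of 1. A further 36 cells met the sum but exceeded the Col2a1 limit and 4 held Ptprc.

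The label was checked with 12 muscle genes that the rule did not use (Cdh15, Megf10, Msc, Heyl, Des, Chrnd, Chrng, Mymk, Mymx, Acta1, Ttn and Neb). After each cell was thinned to 3000 UMIs, 85.9% of the muscle lineage cells (305 of 355; exact 95% interval 81.9% to 89.4%, counting error only) held at least 1 UMI of these genes, against 35% of pericytes, 2.61% of macrophages and 1.77% of tendon cells. The summed level of the 12 genes was 1019 CPM (a gene's UMIs per 10000 UMIs of the cells summed, multiplied by 100) in the muscle lineage cells, 152 CPM in pericytes, 14.9 CPM in chondrocytes and 8.50 CPM in tendon cells. Cells with a sum of exactly 2 stood at 1164 CPM, and cells left out with a sum of 1 stood at 401 CPM, with at least 1 UMI of the 12 genes in 26.4% of them after thinning. By the summed level the cells left out thus lay above pericytes, and by the share of cells below them. Markers of macrophages and Schwann cells were low: Ptprc (by the rule), C1qc, Lyz2 and Foxd3 were at 0, the macrophage list summed to 0 to 4.42 CPM and the Schwann cell list to 9.39 to 15.0 CPM per pup. The pericyte and smooth muscle list was not low, at 342 to 749 CPM per pup against 469 to 863 CPM in all other cells, although Kcnj8 was at 0, and in pup 4 it was higher in the muscle lineage cells (673 against 469 CPM). Much of this sum was Acta2. It stood at 385 CPM in cells with Pax7 but no Myog and 1286 CPM in those with Myog but no Pax7. Abcc9 had 4 and 3 UMIs in these cells. The fibroblast list stood at 4512 to 36655 CPM per pup against 57337 to 91843 CPM in all other cells, and Col2a1 was found in 95.1% of the muscle lineage cells, as in 96.4% of macrophages.

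Some cells carried the transcripts of a second cell type. In WT pup 2 the endothelial list summed to 206 CPM, against 0 to 9.39 CPM in the other 4 pups, and 130 of its 166 UMIs came from 1 cell. In all, 10 cells, 8 of them in pup 2 and 2 in pup 3, held at least 3 UMIs of the endothelial list, of the pericyte genes Rgs5, Kcnj8, Abcc9 and Myh11, or of a set of Schwann cell or macrophage genes, or at least 10 hemoglobin UMIs. The most in 1 cell was 1425 hemoglobin UMIs. Across the series, depth ran from 117746735 to 183322632 UMIs per pup and 55 of 82461 distinct cell barcodes occurred in more than 1 library. The muscle lineage cells of a pup summed to 76061 to 903980 UMIs.

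Setting the muscle lineage cells beside all other cells, 1893 genes reached 100 CPM in them, 59 of these were at least 10-fold and 15 at least 100-fold higher than elsewhere. Apart from the 5 defining genes, the highest ratios were those of Actc1 (650 against 0.337 CPM), Vgll2 (272 against 0.189 CPM), a cofactor of TEAD factors in muscle, Msc (305 against 0.481 CPM), a bHLH repressor of myogenic factors, and Cdh15 (102 against 0.193 CPM), M-cadherin of satellite cells. Next came Hmcn2, Rtn2, Megf10, a receptor that restrains satellite cell differentiation, Asb5, Prox1, Chrnb1, the beta subunit of the acetylcholine receptor, Pde1c, Vgll3 and Rbm24, a muscle splicing factor. The list closed with Chodl and Nppc. Nppc, which encodes the C-type natriuretic peptide that promotes growth plate elongation, stood at 361 CPM in the muscle lineage cells, 16.6 CPM in tendon cells and 1.20 CPM in chondrocytes, and Chodl, the lectin chondrolectin, at 459, 37.7 and 1.22 CPM. Per pup, Nppc in the muscle lineage cells was 92.0 and 358 CPM in WT pups 1 and 2 and 407, 142 and 391 CPM in mutant pups 3, 4 and 5, and all 5 values exceeded the tendon level. Because the cells were picked by 5 of these genes, the ratios are descriptions without a test. Megf10 varied little, at 118, 96.7, 107, 112 and 97.0 CPM in pups 1 to 5.

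**Figure D1:**
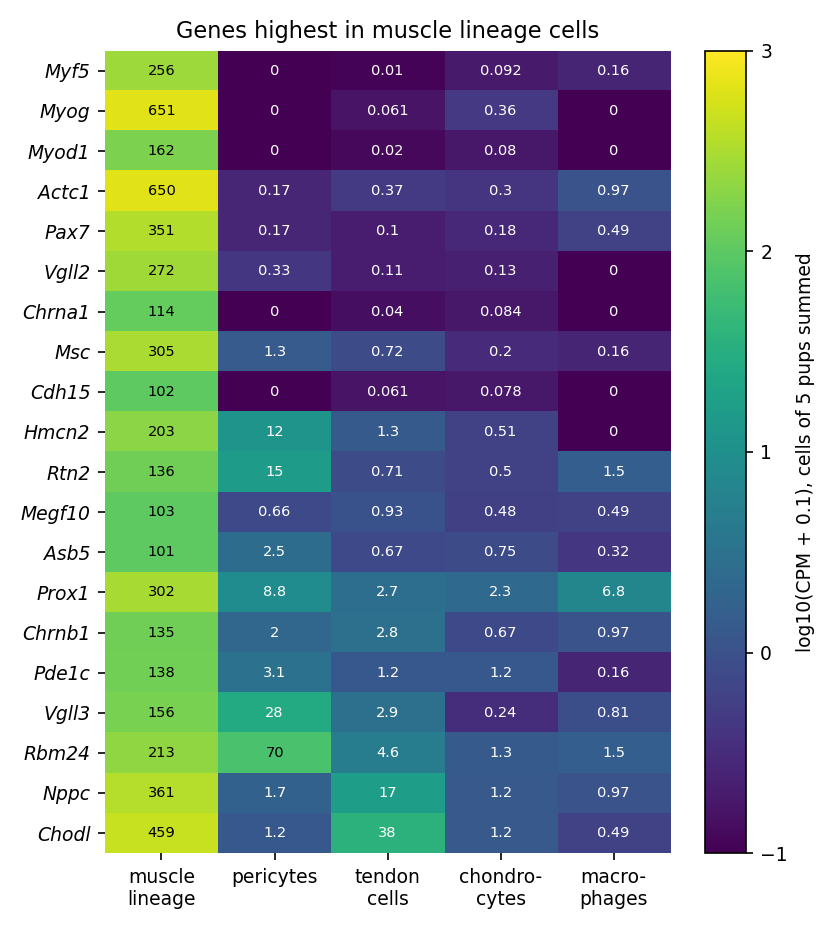
Levels of the 20 genes with the highest ratio of muscle lineage cells to all other cells (rows) in 5 cell classes (columns), each the CPM of the cells of all 5 pups summed; color is log10(CPM + 0.1) and the printed number is the CPM. All 20 genes exceed 100 CPM in the first column, and Rbm24 in pericytes (70.3 CPM) is the highest value outside it.

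The share of muscle lineage cells differed between pups more than between genotypes. They were 0.0661% of the cells of WT pup 1 (10 of 15121), 0.670% of WT pup 2 (111 of 16561), 0.815% of mutant pup 3 (156 of 19133), 0.151% of mutant pup 4 (27 of 17887) and 0.478% of mutant pup 5 (66 of 13814). The groups overlapped, with the lowest and the second highest share both in WT pups, and the exact 95% intervals of pups 1 and 2 (0.0317% to 0.122% and 0.552% to 0.807%) lay far apart. The means were 0.368% (n = 2) and 0.481% (n = 3), a mutant minus WT difference of 0.113 percentage points (exact permutation test, two-sided, p = 0.7; 0.1 is the smallest p that 10 groupings allow). The sign of this difference rested on single pups: it was -0.189 points without pup 1 and -0.0538 points without pup 3. Tendon, which the dissection was also meant to remove, gave cells that made up 17.5%, 14.3%, 17.0%, 21.7% and 8.72% of pups 1 to 5; the part of the dissection in the pup to pup range was not tested.

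**Figure D2:**
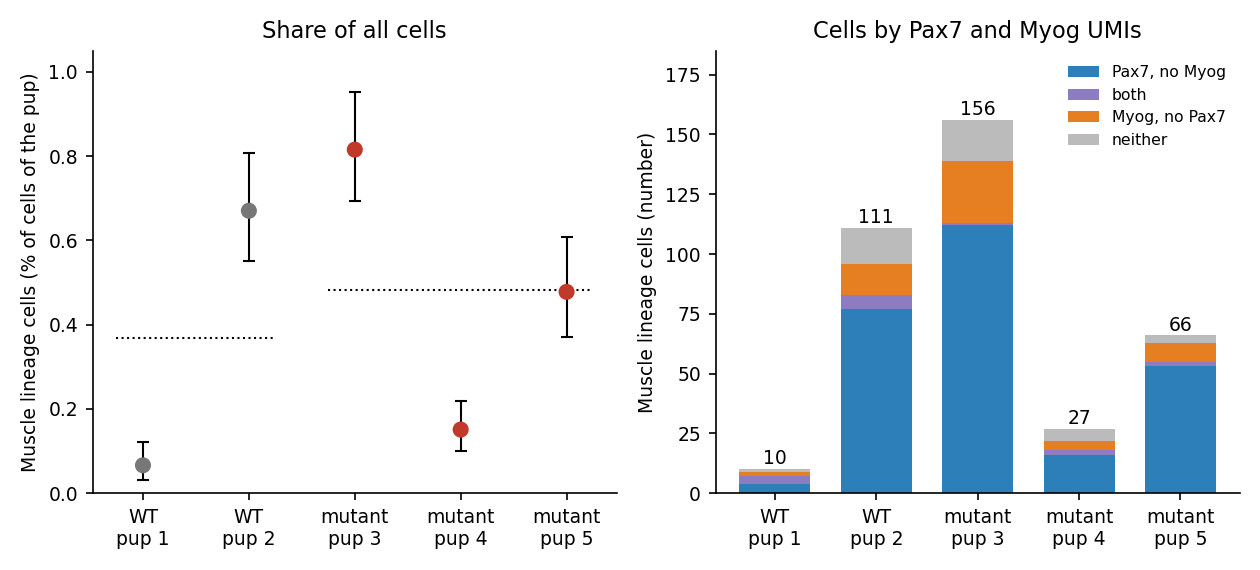
Left, muscle lineage cells as a percentage of the filtered cells of each pup (points; gray WT, red mutant), with exact 95% binomial intervals (bars) and group means (dotted lines). Right, the number of these cells per pup, stacked by whether Pax7 or Myog UMIs were found. Pups 2 and 3 hold 111 and 156 cells and pup 1 holds 10, while cells with Pax7 and no Myog form the largest block in every pup.

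Within the lineage, most cells with Pax7 or Myog held only 1 of these genes. Pax7 without Myog was found in 262 cells (70.8%, called Pax7 cells here), Myog without Pax7 in 53 (14.3%, Myog cells), both in 14 and neither in 41. Of the cells with Myog, 3 of 5 in WT pup 1 and 6 of 19 in WT pup 2 also held Pax7. In mutant pups 3, 4 and 5 it was 1 of 27, 2 of 6 and 2 of 10, with no test made. The split is a reading of UMIs, not a cell type boundary: 52 of the Pax7 cells had 1 Pax7 UMI, but only 4 of the Myog cells had 1 Myog UMI, where the median was 16. Median depths were close, at 5236 UMIs in Pax7 cells and 5682 in Myog cells. By description, Myf5 was 308 CPM in Pax7 cells and 35.8 CPM in Myog cells, Myod1 was 106 and 358 CPM, and Chrna1 was 44.8 and 415 CPM.

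**Figure D3:**
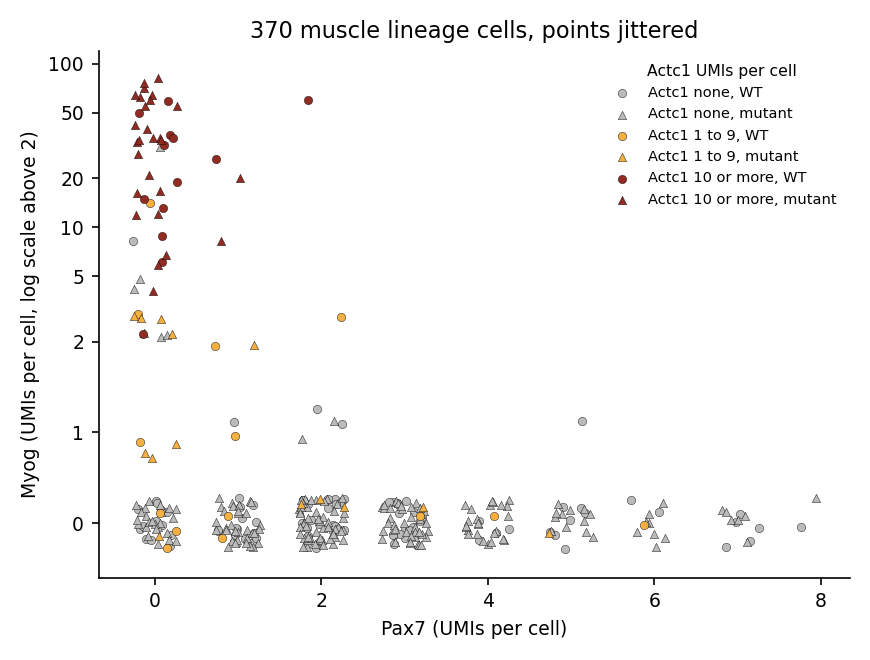
Each of the 370 muscle lineage cells by its Pax7 UMIs (x axis) and Myog UMIs (y axis, logarithmic above 2), with points jittered; circles are WT and triangles mutant, and color gives the Actc1 UMIs of the cell. Most cells rich in Myog lie at 0 Pax7 UMIs, and the cells with 10 or more Actc1 UMIs are among those with Myog.

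The share of cells with Myog was 50% in WT pup 1 (5 of 10), 17.1% in WT pup 2 (19 of 111), 17.3% in mutant pup 3 (27 of 156), 22.2% in mutant pup 4 (6 of 27) and 15.2% in mutant pup 5 (10 of 66). Apart from pup 1, whose exact 95% interval ran from 18.7% to 81.3%, the pups were close together. The mutant mean was 15.3 percentage points lower (18.2% against 33.6%; exact permutation test, two-sided, p = 0.3). The difference was -2.83 points when the cells were chosen after thinning to 3000 UMIs (19.7% against 22.5%, exact permutation p = 0.6), and without pup 1 the mutant mean was 1.11 points higher.

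Most cells of the lineage held cell cycle transcripts. Counting at least 2 UMIs over 22 cell cycle genes in cells thinned to 3000 UMIs, 75.5% of the muscle lineage cells were positive (268 of 355), compared with 26.9% of tendon cells, 49.7% of pericytes and 60.9% of macrophages. The share was 78.2% in Pax7 cells (197 of 252; exact 95% interval 72.6% to 83.1%) and 41.2% in Myog cells (21 of 51; 27.6% to 55.8%), intervals that cover counting error only, and no test over pups was made for the states. Per pup, 90.0% and 75.7% of the cells of WT pups 1 and 2 and 74.7%, 75.0% and 71.7% of those of mutant pups 3, 4 and 5 were positive. Both WT values were above all mutant values, and the mutant minus WT difference of the means was -9.06 percentage points (exact permutation test, two-sided, p = 0.1, the smallest p the design allows). The difference was -1.90 points without pup 1, which holds 10 cells. With a minimum of 1 UMI it was -5.01 points (exact permutation p = 0.3), and without the 10 cells that carried other cell types' transcripts it was -8.00 points (exact permutation p = 0.3).

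To ask how differentiating cells differed from precursors, Myog cells and Pax7 cells of the same pup were summed and compared across the 5 pups (edgeR quasi-likelihood test with the pup as a block, Benjamini-Hochberg adjustment). The states were cut by measured Pax7 and Myog, so the 5 defining genes were left out. Actc1, Rb1, Casz1 and Rbm24 were higher in Myog cells, and Nppc, Notch3, Igfbp5 and Msc were lower. Of 1681 genes with enough counts, 322 were called at an adjusted p under 0.05 (19.2%), 141 higher (8.39%) and 181 lower (10.8%) in Myog cells. Among the 322, 245 moved the same way in every pup, which a test with the pup as a block favors. Genes moving the same way were not counted over all genes tested. The number called was 99 of 1001 genes tested without pup 3 and 138 of 981 without pup 2, the pups with most cells. Myog sums were small, from 12115 UMIs of 2 cells in pup 1 to 157983 UMIs of 26 cells in pup 3. That of pup 4 came from 4 cells. The directions and CPM of Myog cells in pups 1 and 4 therefore rest on very few cells. With no filter on low counts, 680 of 15664 genes were called (4.34%), 210 higher (1.34%) and 470 lower (3.00%), and the calls without the filter given below are to be read against these shares. The count was 124 of 543 genes tested in cells thinned to 3000 UMIs.

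Actc1 was 28.6, 9.44, 7.74, 13.5 and 7.86 CPM in the Pax7 cells of pups 1 to 5 and 825, 2842, 4171, 7108 and 2899 CPM in their Myog cells, so the pup sums of the states did not overlap. In pup 1 the 825 CPM were 10 UMIs in 1 of 2 Myog cells. Its log2 fold change was 8.39 ± 0.30 (SE; edgeR adjusted p = 5.30e-10), and it was found in 86.8% of Myog cells and 3.82% of Pax7 cells. Rb1, which encodes the retinoblastoma protein that holds differentiated muscle cells out of the cycle, was 0, 30.2, 27.8, 40.4 and 11.8 CPM in Pax7 cells and 330, 246, 367, 456 and 532 CPM in Myog cells (log2 fold change 3.69 ± 0.32 SE, adjusted p = 4.99e-06, edgeR). Casz1, a zinc finger factor of heart and muscle, had 1 UMI in all Pax7 cells and 49 in Myog cells, a ratio of CPM of 225 with a counting interval of 38.5 to 9068. Rbm24 rose by 3.65 on the log2 scale, with every Myog value (660 to 1321 CPM) above every Pax7 value (53.9 to 86.5 CPM). The other genes that rose most in all 5 pups were Plxna1 (log2 fold change 4.44), a semaphorin receptor, Myzap (3.99), Zswim6 (3.06), Tmcc3 (3.05), Cap2 (2.96), a regulator of actin filaments, Spg21 (2.86), the adhesion molecule Jam3 (2.82) and Lrrn1 (2.80).

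Nppc showed the reverse pattern. It was 200, 508, 480, 216 and 483 CPM in the Pax7 cells of pups 1 to 5 and 0, 9.47, 6.33, 0 and 0 CPM in their Myog cells (log2 fold change -6.19 ± 0.47 SE, adjusted p = 1.99e-06, edgeR). The Myog cells held 2 Nppc UMIs in all, so the ratio of CPM of Pax7 to Myog cells, 78.9, had a counting interval of 21.8 to 653. Igfbp5, an IGF-binding protein, was 544 to 2452 CPM in Pax7 cells and 0 to 82.3 CPM in Myog cells (-5.05 ± 0.36, adjusted p = 3.50e-06, edgeR). Msc was 229 to 458 CPM in Pax7 cells and 0 to 38.0 CPM in Myog cells (-4.14 ± 0.42, adjusted p = 1.75e-05, edgeR). The rest of the 12 genes that fell most were Notch3 (-5.83), Ntn4 (-4.45), Chodl (-4.11), Col18a1 (-4.00), Hmcn2 (-3.54), the Notch regulator Dtx4 (-3.52), Agtr2 (-3.38), Gxylt2 (-3.34) and Vcan (-3.31). Of the 8 fibroblast and perichondrium markers, 4 passed the filter and 0 were called, while without the filter Col3a1 (2397 CPM in Pax7 cells, 1247 CPM in Myog cells, higher in Pax7 cells in 4 of 5 pups) and Prrx1 (110 and 41.8 CPM, 5 of 5 pups) were called lower in Myog cells. Acta2, of the pericyte and smooth muscle list, was called higher in Myog cells (385 and 1286 CPM, log2 fold change 1.62 ± 0.18 SE, adjusted p = 3.67e-05, edgeR). Hemoglobin genes had 1557 UMIs in Pax7 cells, 1267 of them in 1 cell, and 11 in Myog cells. Their part in the other differences was not tested.

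**Figure D4:**
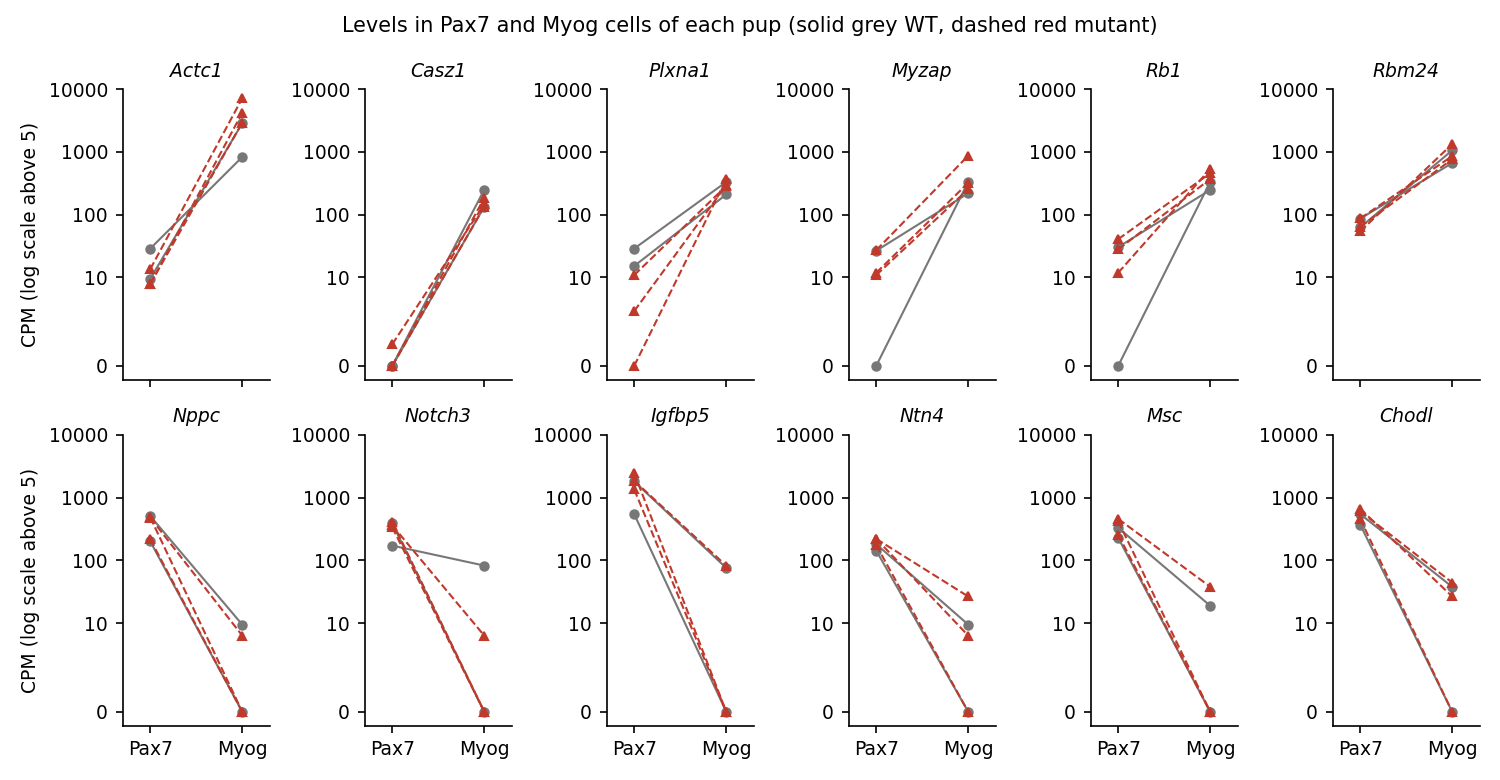
CPM (y axis, logarithmic above 5) of 12 genes in the Pax7 cells and the Myog cells of each pup, joined by a line per pup (solid gray WT, dashed red mutant); the upper row holds genes that rose and the lower row genes that fell. Lines of all 5 pups run in the same direction in each panel, which the choice of these genes required. Notch3 in WT pup 1 (172 to 82.5 CPM) is the shallowest of the lower row.

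In lists of pathway genes, a gene could pass the filter through 1 state alone, so the genes that passed do not stand for the whole list and their counts and fold changes are descriptions. Of 17 differentiation and fusion genes, 6 passed and these 6 were called higher in Myog cells, Rb1 and Jam3 with few UMIs in Pax7 cells: Rb1, Jam3, the membrane-bending Bin1 (2.14), Cdkn1c (1.71) and Cdkn1a (1.03), inhibitors of cyclin-dependent kinases, and the factor Mef2a (1.64). Cdkn1c was abundant in both states, at 1674 to 2289 CPM in Pax7 cells and 4953 to 10070 CPM in Myog cells. The fusion genes were too sparse for the filter but sharply divided. Mymk had 1 UMI in Pax7 cells and 102 in Myog cells (CPM ratio 468, counting interval 82.2 to 18680), found in 64.2% of Myog cells and in no macrophage. Mymx had 0 and 78 UMIs, 119-fold higher in Myog cells with 3 counts set as the floor of the Pax7 sum. Klhl41 had 0 and 83 UMIs, 127-fold higher with the same floor. Without the filter these 3 genes were called higher, as were Mef2c and others to a total of 9, while N-cadherin (Cdh2) was called lower; Cdkn1a was then not called.

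Of 14 thin filament and troponin genes 4 passed the filter: Actc1, Tpm2 (2.09) and Tpm1 (0.71, not called without the filter) were higher and Tpm3 (-0.998), the tropomyosin also made by non-muscle cells, was lower. Of 21 thick filament, titin and Z disc genes 1 passed, Mybpc1, a myosin-binding protein found in 200 of the 370 cells. It stood at 209 CPM in Pax7 cells and 89.5 CPM in Myog cells and was not called (log2 fold change -1.19, adjusted p = 0.101, edgeR), though it was called lower without the filter. Embryonic myosin Myh3 had 12 UMIs in all 370 cells, perinatal Myh8 had 13, and the adult myosins Myh1, Myh2, Myh4 and Myh7 had 1 to 5 each. Without the filter 10 thin filament and 6 thick filament genes were called higher in Myog cells, but part of this rested on 1 cell of mutant pup 3. That cell held 110 of the 119 UMIs of Tnnc2, 81 of 92 of Mylpf, 41 of 44 of Myl1, 32 of 35 of Tnnt3, 22 of 29 of Tnni2 and all 17 of Pvalb, genes of fast fibers. Other sarcomere genes were spread over more cells: Acta1 was found in 30 cells, though that cell held 128 of its 345 UMIs, Tnnt2 in 22, Ttn in 25 and Neb in 85.

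Satellite and progenitor genes moved in both directions. Of 17, 10 passed the filter, and Msc, Vcam1 (-2.73) and Sdc4 (-1.97) were lower in Myog cells and Megf10 (1.94) was among those higher. Cdh15 was not called (0.43 ± 0.29, adjusted p = 0.347, edgeR), with 96.1 CPM in Pax7 and 131 CPM in Myog cells. Calcr, the calcitonin receptor of quiescent satellite cells, was present in the Pax7 cells of every pup (45.3 to 121 CPM) and at 0 UMIs in Myog cells. With 3 counts set as the floor of the Myog sum it was 6.10-fold lower (counting limit 4.85-fold), and it was called without the filter. Pax3 had 1 UMI. In the Notch pathway 4 of 14 genes passed, and Notch3 and its target Hes1 (-2.57 ± 0.61, adjusted p = 0.0144, edgeR) were lower, Hes1 in 4 of 5 pups, whereas Notch1 (0.41) and Rbpj (0.67) were not called. Without the filter the ligand Dll1 was called higher in Myog cells (21.4 against 116 CPM), and Jag1, Hey1 and Heyl lower.

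**Figure D5:**
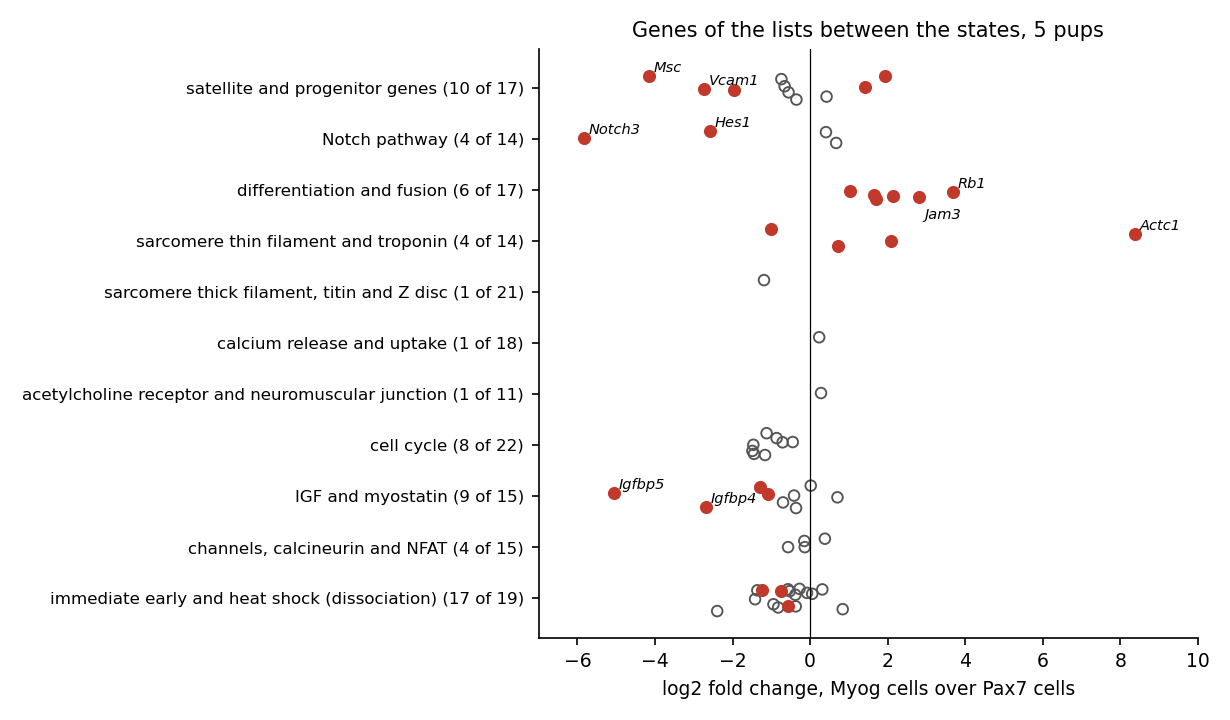
Log2 fold changes of Myog over Pax7 cells (x axis) for the genes of 11 lists that passed the filter on low counts, with the number that passed of the list's genes in brackets; filled red points were called at an edgeR adjusted p under 0.05 and open points were not. The 6 differentiation and fusion genes that passed lie right of 0, from 1.03 to 3.69. The 8 cell cycle genes that passed lie left of 0 with none called. A gene could pass through 1 state alone.

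None of the 8 cell cycle genes that passed of 22 was called, though all 8 fold changes were negative, for example Mki67 at 425 CPM in Pax7 cells and 164 CPM in Myog cells (-1.49 ± 0.65, adjusted p = 0.17, edgeR) and Pcna at 494 and 262 CPM (-1.16 ± 0.38, adjusted p = 0.0569, edgeR). These CPM are of all pups pooled. Of the 8, Ccna2 and Cdk1 were lower in Myog cells in 4 of 5 pups but not in pup 5. There they stood at 130 and 157 CPM in Pax7 cells and 213 and 160 CPM in Myog cells. In Pax7 and Myog cells Cdk1 was 151 and 133 CPM in pup 2 and 176 and 6.33 CPM in pup 3. Without the filter 7 of the 22 were called lower. Calcium release genes were mostly below the filter: Atp2a2 was not called, and without the filter Ryr1, Atp2a1, Cacng1, Orai1 and the 1-cell gene Pvalb were called higher. Of the acetylcholine receptor and junction list, Chrnb1 was not called (129 CPM in Pax7 cells, 182 CPM in Myog cells, log2 fold change 0.28 ± 0.30), while Dok7, an activator of the receptor kinase Musk, had 1 UMI in Pax7 cells and 28 in Myog cells and was called without the filter. The word CAGCTG stood in 14.9% of the 188 promoters of genes called higher, 17.0% of the 200 promoters of genes called lower and 10.8% of the 1766 promoters of all genes tested, with no test made.

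Between the genotypes no gene passed. The muscle lineage cells of each pup were summed and mutant pups compared with WT pups, to see whether cells beside mutant cartilage differed. Of 5692 genes tested by edgeR 0 were called (0%), 165 had an unadjusted p under 0.05, and the smallest adjusted p was 0.204. DESeq2, run on 16131 genes without that filter, also called 0. The 2 genes with that value were Wif1, a secreted Wnt inhibitor, at 145 and 101 normalized CPM in WT pups 1 and 2 and 24.9, 23.4 and 41 in mutant pups 3, 4 and 5 (log2 fold change -1.90 ± 0.38 SE), and Gng11 at 145, 91.2, 28.4, 31.2 and 27.3 (-1.84 ± 0.38 SE), named after their values were seen. Neither gene's groups overlapped, which picking the smallest p of 5692 genes made likely. How many of all genes tested had groups apart was not counted. The count was 19 without pup 1, all lower in mutant pups and including Wif1 and the endothelial genes Cdh5, Kdr and Pecam1, which were high in the summed cells of WT pup 2. It was 8 without pup 2 and 5 without pup 5, the latter being Acta1, Tnnc2 and Xist (higher) and the Y-linked Ddx3y and Eif2s3y (lower). Of these, Tnnc2 and Acta1 had 110 of 119 and 128 of 345 UMIs in the 1 cell of mutant pup 3 described above. By Xist and Ddx3y, the pups that remain without pup 5 were male WT and female mutant pups. Sex and genotype cannot be told apart in that fit. With all 5 pups and the 10 cells carrying other cell types' transcripts left out, 0 of 5656 genes were called, as with these cells kept. The fits that left out 1 pup were not repeated without these cells, so their part in those calls was not tested. With no filter on low counts 37 of 16131 genes were called (0.229%), 2 higher (0.0124%) and 35 lower (0.217%) in mutant pups, with Wif1 and Gng11 among the lower.

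Muscle genes gave wide intervals between the genotypes. Actc1 was 304 and 620 normalized CPM in WT pups and 788, 1420 and 427 in mutant pups (0.76 ± 0.69), Msc was 130 and 266 against 399, 203 and 386 (0.60 ± 0.30), and Nppc was 101 and 388 against 436, 148 and 427 (0.27 ± 0.64); the groups overlapped in all 3. Trpv4 itself was scarce in the lineage, with 24 UMIs in all 370 cells (10.7 CPM, found in 5.41% of cells) against 186 CPM in chondrocytes (69.4% of cells), 12.2 CPM in tendon cells and 30.3 CPM in macrophages (17.4% of cells). The 24 UMIs fell as 2 and 10 in WT pups and 6, 1 and 5 in mutant pups, too few for the filter. The edgeR fit without the filter did not call Trpv4, and with so few UMIs it cannot decide on a genotype difference.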

How the data were processed

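Growth plate cells of 2 WT and 3 mutant pups were profiled by BD Rhapsody single-cell RNA-seq. The deposited matrices hold UMI counts per gene and cell, made by the authors with a hosted pipeline that assigned barcodes and quantified transcripts, with no normalization; the submitters' processing notes name mm10, and the annotation and versions are not given in the sources used here. They list 29818 genes over all pups and 14003 to 19589 cells per pup. The filters of the study's methods (200 to 6000 genes, at most 10% mitochondrial UMIs) left 13814 to 19133 cells with median depths of 6000 to 9261 UMIs.

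The members, lists and tests were chosen with earlier results of these data known. Pups were the replicates. UMIs were summed per pup, or per pup and state, and tested with edgeR 4.0.16 (R 4.3.3; TMM, filterByExpr, robust quasi-likelihood fit, Benjamini-Hochberg at 0.05), with DESeq2 1.42.0 as an alternative; levels are CPM of pooled cells and are not divided by gene length, so they are compared within a gene. The state comparison used the pup as a block because both sums come from the same animal. Shares were compared by exact permutation over 10 groupings. Thinning drew 3000 UMIs per cell without replacement, leaving out shallower cells. Intervals are 95% exact binomial or Poisson intervals and cover counting error only; the floor for a sum of 0 was 3 counts over the state. Scripts were tested on simulated data.

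Cells set beside the lineage passed the same filters: macrophages (616; at least 1 Ptprc UMI and 5 UMIs of 3 C1q genes), tendon cells (13369; at least 2 Tnmd UMIs), pericytes (666; at least 2 Rgs5 UMIs and 1 of Kcnj8 and Abcc9) and chondrocytes (47802; Col2a1 at or above the limit and no Ptprc); tendon cells and pericytes were also held to the Col2a1 and Ptprc limits and were not members. Scrublet (scanpy 1.11.5), run per library, called 0 cells, so its threshold did not work here; leaving out the upper 5% of its scores, and leaving out cells with other cell types' transcripts, were alternatives chosen after seeing the data. Named genes were the defining genes, list members, the 20 genes with the highest ratio among those of at least 100 CPM, and up to 12 genes per direction between the states with the largest fold change among genes past the threshold with at least 50 CPM in the higher state and 1 direction in all 5 pups. Promoters came from a RefSeq table on GRCm38.p6. The other alternatives changed the test, the scaling, the filters, the limits of the rule, the depth, a sex covariate (Xist) and left out each pup. Results for some list genes are not reported here.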

Additional observations from a re-analysis of the deposited data

How the results depend on the processing

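The 24 genes with the largest fold changes between the states kept their direction and call in each of the 257 alternative values that could be computed for them, which their choice (past the threshold and 1 direction in all 5 pups) made likely. Some settings could not be computed for many of them. In cells thinned to 3000 UMIs only Actc1, Rbm24, Spg21, Nppc, Igfbp5 and Chodl had a value, so the other genes were not checked at equal depth. Casz1, Zswim6, Notch3, Ntn4, Dtx4 and Agtr2 had no value without pup 3. Cdkn1a and Tpm1, named from the lists, lost their calls with no filter on low counts. The number of genes called between the states was 322. It was 383 with no replicate block, 345 with DESeq2 (run without the filter on 15664 genes, and sharing 217 of the 322) and 332 with DESeq2 size factors. It was 333 without the upper 5% of doublet scores and 324 without the 10 cells carrying other cell types' transcripts. The number of genes tested differed between some settings. With no filter on low counts 680 of 15664 were called, and in cells thinned to 3000 UMIs 124 of 543. Leaving out 1 pup gave 99 of 1001 (pup 3) to 468 of 2639 (pup 1), beside 322 of 1681 with all pups.

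Between genotypes the 0 calls became 37 with no filter on low counts (2 higher and 35 lower of 16131, with Wif1 among the lower), 2 (Bgn and Wif1) without the upper 5% of doublet scores, and 0 to 19 when 1 pup was left out, with 19 without pup 1, 8 without pup 2 and 5 without pup 5; 0 remained with DESeq2, DESeq2 size factors, the Xist covariate and a minimum sum of 3 UMIs. The 2 higher were Mylpf and Tnni2, with 81 of 92 and 22 of 29 UMIs in 1 cell of pup 3, and the lower ones included the endothelial and pericyte genes Cdh5, Kdr, Pecam1, Rgs5 and Myh11; 8 of the 10 cells carrying other cell types' transcripts were in pup 2. The causes were not tested. The mutant minus WT difference in share ran from -0.189 to 0.415 percentage points over the pups left out (-0.189 without pup 1, -0.0538 without pup 3), that in the share with Myog from -31.8 to 1.11 points (1.11 without pup 1), and that in the share with cell cycle transcripts from -16.2 to -1.90 points, so the sign of the first pair depended on single pups. With 2 against 3 pups no exact permutation test of a share could go below p = 0.1, and pup 1 rests on 10 cells. The alternative of leaving out cells that Scrublet itself calls could not act, since it called 0.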

Other observations

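The remaining 3 lists were read between Myog and Pax7 cells by the same edgeR fit. Of 15 IGF and myostatin genes 9 passed the filter, and Igfbp5, Igfbp4 (403 CPM in Pax7 cells, 71.6 CPM in Myog cells, log2 fold change -2.67), H19 (-1.28) and Fstl1 (-1.08) were lower in Myog cells, H19 and Fstl1 in 4 of 5 pups; Igf1 (390 and 438 CPM) and Igf1r (275 and 257 CPM) were not called. Of 15 channel, calcineurin and NFAT genes 4 passed and 0 were called; without the filter Piezo1 (133 and 62.6 CPM) and Rcan2 (93.5 and 23.9 CPM) were called lower. Of 19 immediate early and heat shock genes, which dissociation is known to raise, 17 passed and Jund (-0.74), Egr1 (-0.56) and Dnajb1 (-1.25) were lower in Myog cells. This is 3 of 17 called lower, beside 10.8% of all genes tested that were called lower (19.2% in either direction). Without the filter 7 of the 19 were called lower (Fos, Jun, Jund, Egr1, Dusp1, Hspa1a and Dnajb1), beside 3.00% of all genes. Their part in the other differences was not tested.

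Between genotypes none of the genes of the 11 lists was called among those that passed the filter, while Mylpf and Tnni2 were called without it and Acta1 and Tnnc2 without pup 5. The 14 cells with both Pax7 and Myog UMIs had 1322 CPM of Igfbp5 and 160 CPM of Notch3. Their 2023 CPM of Actc1 was carried by few cells: 8 of the 14 held the gene, 4 with 10 or more UMIs, and the highest had 92. The 41 cells with neither gene had 22.6 CPM of Actc1, 302 CPM of Nppc and 962 CPM of Igfbp5, and 82.1% of them (32 of 39) held cell cycle transcripts.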
